A study of Mus musculus with 9 samples.

Results

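The collagen genes were taken by symbol, as every gene named Col, a type number, the letter a and a chain number. Of the 15824 genes in the count table, 36 matched, and all 36 were among the 15817 genes tested. By the way their protein chains assemble they comprised 10 fibrillar collagens, 9 collagens of basement membranes and 17 others. The 17 others were 4 beaded-filament chains (type VI), 7 fibril-associated collagens, 3 transmembrane collagens, the short-chain network collagen Col8a1, and Col26a1 and Col28a1. Col2a1, Col6a4, Col6a5, Col8a2, Col9a1, Col9a2, Col10a1 and Col17a1 were not analysed here.

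The study measured RNA of cells labelled as isolated cardiomyocytes of CD-1 mice at postnatal days 1, 14 and 56 (P1, P14 and P56), with 3 libraries per age. No library was given a genotype or a treatment. Each library pooled hearts, 12 for the youngest age and 6 to 7 for both others, so the spread between libraries is a spread between pools. The protocol texts attached to every sample describe both a whole-cell isolation, with a mention of operated animals, and a sort of nuclei on the protein Pcm1; which of them gave these libraries is not settled by the labels. The RNA was depleted of ribosomal RNA before sequencing.

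A collagen is built from 3 chains wound around each other, each with glycine at regular positions of a repeat written Gly-X-Y, the smallest residue being the only one that fits inside the helix. Fibrillar collagens mostly have 1 long uninterrupted repeat. They pack side by side into the fibrils that give the heart its tensile stiffness. Type IV chains, whose repeat is broken many times, join into the flexible sheet that surrounds every cardiomyocyte and capillary. In the heart, fibroblasts are known as the main source of fibrillar collagen, and the basement membrane around the muscle cells is made by several cell types, the muscle cells among them.

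The difference in the repeat can be read in the genes themselves. Stretches of the same length are shown from Col1a1, a chain of type I collagen, and from Col4a1, a chain of type IV, both taken from the GENCODE coding sequences, with the glycine codons (GGN) that keep the repeat in capitals.
Col1a1, codons 168 to 197: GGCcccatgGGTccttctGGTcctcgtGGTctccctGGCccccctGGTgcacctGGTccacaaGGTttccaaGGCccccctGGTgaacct
Col4a1, codons 1338 to 1367: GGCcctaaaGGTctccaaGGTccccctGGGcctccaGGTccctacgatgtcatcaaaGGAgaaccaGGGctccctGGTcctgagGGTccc
The Col1a1 stretch keeps the spacing throughout, and the Col4a1 stretch has an interruption in its middle, where the capitals stand further apart. Over whole coding sequences the longest unbroken run of such triplets was 216 to 344 in the 10 fibrillar genes (median 338) and 30 to 75 in the 9 basement membrane genes (median 42). The shortest of the fibrillar runs were those of Col24a1 (216) and Col27a1 (217), whose repeats are more broken than those of the other fibrillar genes. The other classes lay between 23 and 113.

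The 6 type IV genes lie in 3 pairs that start head to head, on chromosomes 8, 1 and X (GRCm38). Col4a1 (chr8:11198423-11312826, minus strand) and Col4a2 (chr8:11312805-11449287, plus strand) begin 21 bases apart, and their first exons overlap by 22 bases. Those 22 bases, on the plus strand with the outermost bases, which are the first base of Col4a2 and the first base of Col4a1, in capitals, are shown because they hold the start of both genes.
Col4a1 and Col4a2, chr8:11312805-11312826: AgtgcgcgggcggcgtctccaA
Col4a3 (chr1:82586921-82722059, plus strand) and Col4a4 (chr1:82448423-82586849, minus strand) begin 72 bases apart. Col4a5 (chrX:141475385-141689234, plus strand) and Col4a6 (chrX:141165403-141474076, minus strand) begin 1309 bases apart, the widest spacing of the 3 pairs.

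Bases before the start of 3 genes, from the RefSeq promoter table of GRCm38.p6, are shown for the pair whose members differed in opposite directions between P1 and P56 (Col4a5 and Col4a6) and for Col3a1, the fibrillar gene with the highest mean CPM over the 9 libraries. For Col4a6 and Col3a1 they are the 250 bases before the start, and for Col4a5 the 216 bases before its GENCODE model, which begins before the RefSeq start. Capitals mark the sequence CCAAT, the GC box GGGCGG or the TATA box TATAAA, on either strand.
Col4a5, chrX:141475169-141475384, plus strand: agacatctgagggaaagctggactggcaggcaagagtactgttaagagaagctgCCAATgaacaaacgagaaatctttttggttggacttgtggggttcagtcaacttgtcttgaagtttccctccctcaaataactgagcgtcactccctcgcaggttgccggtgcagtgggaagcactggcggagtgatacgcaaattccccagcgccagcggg
Col4a6, chrX:141474077-141474326, minus strand: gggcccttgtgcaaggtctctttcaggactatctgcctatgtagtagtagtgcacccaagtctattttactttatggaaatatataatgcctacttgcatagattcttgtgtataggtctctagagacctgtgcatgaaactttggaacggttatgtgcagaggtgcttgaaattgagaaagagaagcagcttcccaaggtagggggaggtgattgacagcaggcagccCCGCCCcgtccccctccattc
Col3a1, chr1:45311288-45311537, plus strand: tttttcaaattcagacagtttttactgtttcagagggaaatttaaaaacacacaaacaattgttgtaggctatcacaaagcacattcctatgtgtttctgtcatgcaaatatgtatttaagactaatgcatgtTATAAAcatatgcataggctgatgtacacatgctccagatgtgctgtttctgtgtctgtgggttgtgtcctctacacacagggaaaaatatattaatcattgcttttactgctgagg
The table held 30 windows for 28 of the 36 genes, each of 250 bases before and 50 after a start. CCAAT, searched on both strands, was in 10 of the 30, against 37.4% of all 32851 windows in the table. GGGCGG was in 19 of the 30, against 35.7% of all windows, and TATAAA in 3 of the 30, against 13.6%. A match describes the letters of a window only.

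Library totals ran from 49190887 to 58538025 counts at P1, from 36619799 to 38878181 at P14 and from 45866453 to 49535917 at P56. The lowest count of any collagen gene in any library was 2. Levels are given as CPM, a gene's counts brought to a common library total after scaling by the trimmed mean of M-values (TMM), as mean ± SD of n = 3 libraries. Cardiomyocyte genes were abundant at every age, the 10 markers Myh6, Tnnt2, Actn2, Ryr2, Tnni3, Myl2, Ttn, Pln, Myom2 and Pcm1 summing to at least 51539.7 CPM in each library. Markers of other cell types were present too. In the test described below, 42 of 54 were called higher at P14 than at P1, beside 28.4% of all genes. From P14 to P56, 39 of 54 were called lower, beside 28.5% of all genes. The summed level of 14 fibroblast markers was 102.6 to 148 CPM in the P1 libraries, 189.7 to 615.2 at P14 and 65.6 to 129.3 at P56. That of 14 endothelial markers was 82.3 to 116 CPM in the P1 libraries, 260.7 to 654.4 at P14 and 45.6 to 113 at P56. For 8 mural markers the ranges were 168.4 to 196.3, 196.6 to 295.5 and 51.9 to 85.2 CPM. The 9 of 11 leukocyte markers tested summed to 5.16 to 7.42, 12.8 to 40.5 and 10.1 to 21.7 CPM, and the 6 of 7 epicardial markers to 40.0 to 43.9, 18.9 to 37.5 and 6.26 to 13.9 CPM, 1 of them being at 0 in a library. Of these 6, 4 were called higher at P14 than at P1 and 1 lower, beside 28.4% and 27.5% of all genes. The lower marker was Tbx18, the most abundant of them at P1 (34.5 ± 0.793 CPM, and 9.44 ± 1.70 CPM at P14). The fibroblast and mural sums also lean on abundant markers, such as Gpc6 (225 ± 134 CPM at P14) and Acta2 (96.0 ± 13.2 CPM at P1). Of the 8 mural markers, 5 were called higher at P14 than at P1 and 2 lower. Only 3 of 7 Schwann cell markers were tested (14.2 to 21.2 CPM summed over all libraries). Among defining markers, the fibroblast receptor Pdgfra stood at 6.80 ± 1.80, 21.3 ± 14.0 and 4.81 ± 2.08 CPM at P1, P14 and P56, and the endothelial adhesion molecule Pecam1 at 10.7 ± 1.36, 50.2 ± 21.2 and 6.67 ± 3.44 CPM. Within P14 the sums of the fibroblast, endothelial, mural, leukocyte and epicardial lists were highest in library 1 and lowest in library 3, and within P56 the order was the same. In these bulk samples, fewer cells of a type and less RNA per cell cannot be told apart, and the part of the other cell types in the collagen changes below was not tested.

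Across the 3 ages most collagens were highest at P14: the mean level was highest at P14 in 26 of 36 genes, at P1 in 7 and at P56 in 3. Differences among the ages passed an edgeR quasi-likelihood F test, with Benjamini-Hochberg adjustment over all tested genes and a threshold of 0.05, in 35 of 36 genes, against 78.0% of all genes; the exception was Col20a1. From P1 to P14, 16 collagens rose and 5 fell, where 28.4% of all genes rose and 27.5% fell. From P14 to P56, 2 rose and 27 fell, where 27.5% of all genes rose and 28.5% fell. Between P1 and P56 directly, 6 were higher and 21 lower at P56, where 30.9% of all genes were higher and 31.7% lower. The median log2 change of the 36 genes was 0.93, -2.16 and -1.25 in these 3 comparisons, beside medians of 0.00, -0.02 and -0.03 over all genes tested. The comparisons share libraries and are not independent of each other. The second interval's change was lower than the first's in 28 collagens and higher in 2 (24.1% of all genes were called higher and 26.0% lower in this test). The 2 were Col4a5 and Col4a6, and 1 was called without any one P1 library, without P14 library 2 or 3, or without P56 library 1 or 3.

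**Figure D1:**
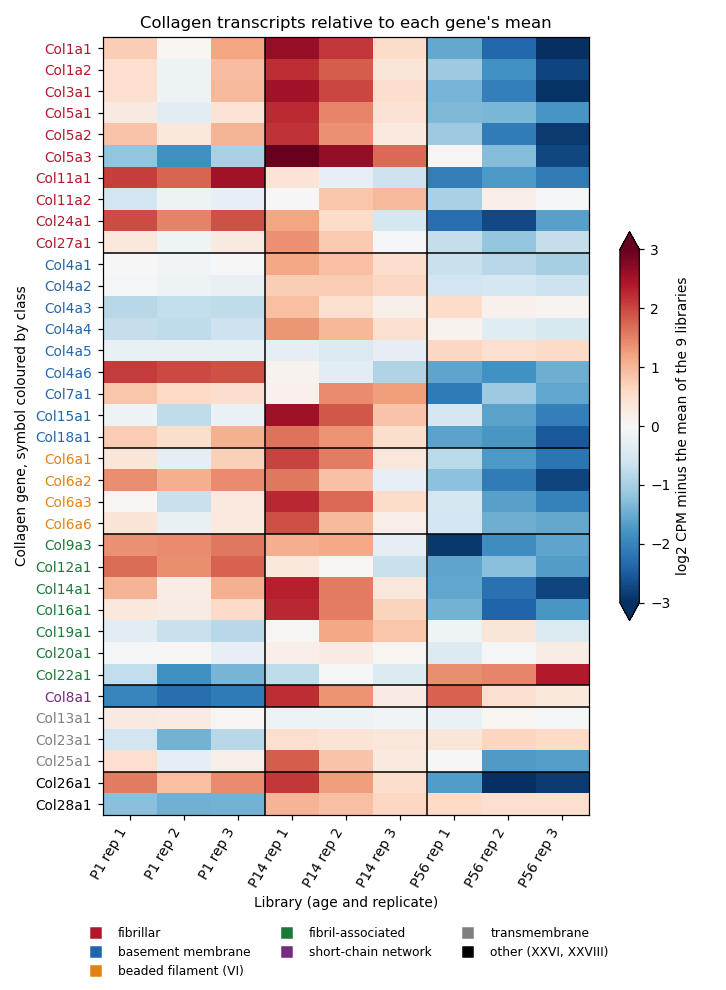
Level of each of the 36 collagen genes in each of the 9 libraries, as log2 CPM relative to the gene's own mean over the libraries, with genes grouped by class. Colours are capped at 3 on either side. Most fibrillar rows are highest in the P14 columns and lowest in the P56 columns. By mean CPM, the fibrillar genes Col5a3 and Col11a2 are not lowest at P56. Nor are Col4a3, Col4a4, Col4a5, Col8a1, Col13a1, Col19a1, Col20a1, Col22a1, Col23a1 and Col28a1.

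All 10 fibrillar collagens fell between P14 and P56, where 28.5% of all genes fell, with a median log2 change of -3.18, the lowest of the 7 classes. The 2 chains of type I collagen and the single chain of type III, the bulk of heart fibrils, had the highest mean CPM of the class over the 9 libraries; at P56 Col5a1 was above both type I chains. Col1a1 (chr11:94936224-94953042) was counted at 55.1, 34.6 and 75.2 CPM in the P1 libraries, at 203, 145 and 49.0 CPM at P14 and at 11.4, 6.52 and 3.23 CPM at P56. All P56 values lie below all others, and the lowest P14 library overlaps the P1 range. The fall from P14 to P56 was 18.8-fold (log2 change -4.23 ± 0.60 SE, adjusted p = 0.000284), and P56 was also lower than P1 (-2.96 ± 0.57, adjusted p = 0.00128). The difference between P1 and P14 did not pass the threshold (1.27 ± 0.52, adjusted p = 0.0606).

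Col1a2 (chr6:4504814-4541544), the partner chain in type I collagen, had 36.4, 22.9 and 48.5 CPM at P1, 119, 89.8 and 33.1 CPM at P14, and 12.0, 7.25 and 3.79 CPM at P56. Its P14 and P1 values overlap as those of Col1a1 do, and its fall from P14 to P56 was 10.5-fold (-3.40 ± 0.54, adjusted p = 0.000521). Col3a1 (chr1:45311538-45349706), which forms type III collagen, had 70.6, 44.7 and 97.5 CPM at P1, 287, 201 and 72.0 CPM at P14, and 19.1, 12.0 and 6.53 CPM at P56. It rose from P1 to P14 (1.398 ± 0.50, adjusted p = 0.0362) and fell 14.9-fold by P56 (-3.90 ± 0.56, adjusted p = 0.000304). The rise of Col3a1 did not pass without P1 library 1 (adjusted p = 0.0918) or 2 (0.120), without P14 library 1 (0.105) or 2 (0.0883), or without P56 library 2 (0.0518). With the score of other cell types' markers in the fit (described further on), Col3a1 was instead called lower at P14 than at P1 (-1.26, adjusted p = 0.000949).

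The counts of these 3 genes kept narrow ratios within an age. Col3a1 had 1.28 to 1.30 counts per count of Col1a1 in the P1 libraries, 1.39 to 1.47 at P14 and 1.68 to 2.02 at P56. Col1a1 had 1.51 to 1.55 counts per count of Col1a2 in the P1 libraries, 1.48 to 1.70 at P14 and 0.853 to 0.951 at P56, and for both pairs the P56 ratios do not overlap those of the earlier ages. They are ratios of counts, not of transcripts, because the genes differ in length.

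Type V collagen is a minor partner that starts and limits the growth of type I fibrils. Its chain Col5a1 rose from 28.0 ± 7.21 CPM at P1 to 74.9 ± 42.9 CPM at P14 (adjusted p = 0.0094) and fell to 9.09 ± 1.45 CPM at P56. Its partner Col5a2, which lies tail to tail with Col3a1 on chromosome 1 at a gap of 24614 bases, had 20.6, 14.3 and 23.2 CPM at P1, 50.9, 29.6 and 13.8 CPM at P14, and 5.32, 2.64 and 1.56 CPM at P56. The first change of Col5a2 was not called (0.70 ± 0.46, adjusted p = 0.226) and the second was a fall of 9.91-fold. Without P56 library 1 the log2 change of that fall was -3.91, against -3.31 with it, and that between P1 and P56 was -3.21, against -2.61.

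Col5a3, the third type V chain, had the largest rise of any collagen from P1 to P14. It was counted at 0.775, 0.493 and 0.901 CPM at P1, 22.1, 11.1 and 5.77 CPM at P14, and 1.81, 0.712 and 0.267 CPM at P56. Every P14 library is above every other library, and the P1 and P56 values overlap. The rise was 17.9-fold (4.16 ± 0.63, adjusted p = 0.000408) and the fall 14.0-fold (-3.80 ± 0.63, adjusted p = 0.000696), and P56 did not differ from P1 past the threshold (0.36 ± 0.68, adjusted p = 0.67). Without P14 library 1 the rise was 3.53 on the log2 scale and the fall -3.18, and without P56 library 1 the fall was -4.73. With the score of other cell types' markers in the fit (described further on), the rise of Col5a3 was 1.25 (adjusted p = 0.00334). The fall was then -0.35 and not called (adjusted p = 0.451), and P56 was called higher than P1 (0.90, adjusted p = 0.00188). In that fit the largest rise of any collagen from P1 to P14 was that of Col11a2 (2.14).

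Among the other fibrillar genes, Col11a1 and Col24a1 fell over both intervals. Col11a1, a chain of the cartilage-type fibril, had 1.61, 1.29 and 2.18 CPM at P1, 0.511, 0.325 and 0.248 CPM at P14, and 0.0906, 0.115 and 0.0891 CPM at P56, with no overlap between ages. It fell 4.64-fold by P14 (adjusted p = 0.000202) and was 16.8-fold lower at P56 than at P1 (-4.07 ± 0.36, adjusted p = 5.58e-06). Col24a1 fell likewise, from 2.64 ± 0.447 to 1.12 ± 0.594 and then 0.173 ± 0.0663 CPM, and was 15.0-fold lower at P56 than at P1. Col11a2 rose at P14 (0.97 ± 0.31, adjusted p = 0.0236) and had the smallest fall of the class by P56 (-0.85 ± 0.31, adjusted p = 0.0419), with 3.42, 4.59 and 4.29 CPM at P1, 5.03, 9.0 and 10.0 CPM at P14 and 2.60, 5.88 and 4.88 CPM at P56. Those P14 and P56 values overlap, the rise did not pass without P1 library 1 or 3 or P14 library 2 or 3 (adjusted p 0.0570 to 0.0850), and the fall passed without P14 library 1 or P56 library 2 but not without any other single library (adjusted p 0.0543 to 0.120). With the marker score in the fit, the rise of Col11a2 was 2.14 (adjusted p = 0.000265) and its fall -2.38 (adjusted p = 0.00147). Col27a1 went from 5.09 ± 0.837 to 8.00 ± 3.66 and 2.53 ± 0.422 CPM, with only the second change and the difference between P1 and P56 called, the latter not without P1 library 1 (adjusted p = 0.0556) or P56 library 2 (0.0648).

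In total 4 fibrillar genes rose from P1 to P14, Col3a1, Col5a1, Col5a3 and Col11a2, and 2 fell, Col11a1 and Col24a1, in a comparison where 28.4% of all genes rose and 27.5% fell. Between P1 and P56, 8 of 10 were lower at P56, against 31.7% of all genes, the exceptions being Col5a3 and Col11a2. The count of 4 rises rested on the P14 libraries that entered: without P14 library 3 it was 7, and without P14 library 2 or P1 library 1 it was 2.

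**Figure D2:**
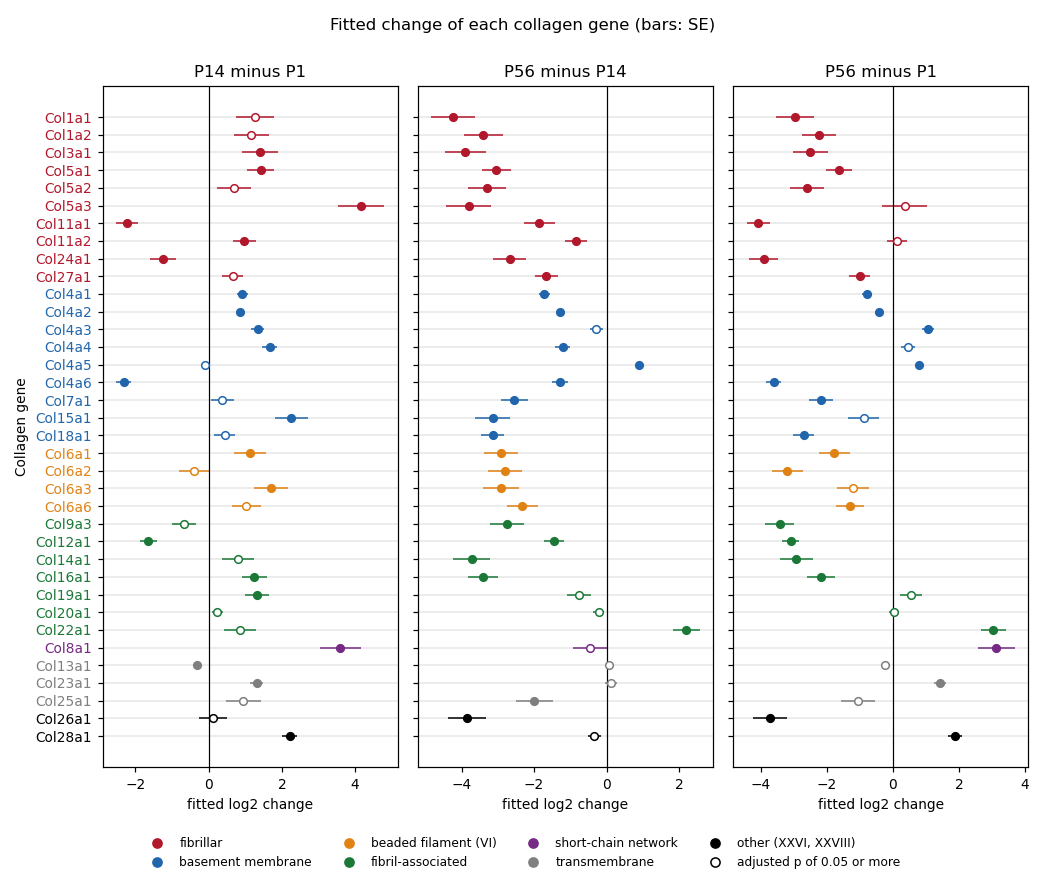
Fitted log2 change of each collagen gene (rows, coloured by class) for the 3 pairs of ages, with bars of 1 SE and open points where the adjusted p was 0.05 or more. All 10 fibrillar genes lie below 0 between P14 and P56, where Col4a5 and Col22a1 are the members called higher.

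Basement membrane collagens were the most abundant class at every age. Their summed level was 672 ± 14.6 CPM at P1, 1063 ± 143 CPM at P14 and 644 ± 30.6 CPM at P56, with 660.1 to 688 at P1 and 622.4 to 679.1 at P56. The P1 and P56 ranges thus overlap, and the P14 range of 916.9 to 1204 lies above both. From P1 to P14, 5 of 9 members rose and 1 fell (median 0.85), beside 28.4% and 27.5% of all genes. Over the second interval 1 rose and 7 fell (median -1.29), beside 27.5% and 28.5% of all genes. At P56 2 were higher and 5 lower than at P1 (median -0.80), beside 30.9% and 31.7% of all genes.

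Col4a1 and Col4a2, whose chains form the ordinary network of nearly all basement membranes, rose and fell together. Col4a1 had 178, 170 and 180 CPM at P1, 403, 337 and 257 CPM at P14, and 113, 100 and 89.5 CPM at P56. No age overlaps another. Col4a1 rose 1.89-fold (0.92 ± 0.14, adjusted p = 0.00047) and fell 3.29-fold (-1.72 ± 0.15, adjusted p = 1.55e-05). Col4a2 had 241, 228 and 218 CPM at P1, 422, 427 and 390 CPM at P14, and 169, 176 and 165 CPM at P56, again without overlap. Its rise was 1.80-fold (0.85 ± 0.06, adjusted p = 3.35e-06) and its fall 2.43-fold (-1.28 ± 0.06, adjusted p = 6.83e-07). Both were lower at P56 than at P1, by 0.80 for Col4a1 and 0.43 for Col4a2 on the log2 scale. The count ratio of Col4a1 to Col4a2 was 0.736 to 0.825 in the P1 libraries, 0.659 to 0.955 at P14 and 0.542 to 0.667 at P56, so the P14 libraries spanned most of the range seen over all ages although the genes share their start.

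Col4a5 and Col4a6 did not move together. Col4a5, a chain of the networks known from kidney and muscle, had 194, 196 and 195 CPM at P1, 186, 170 and 189 CPM at P14, and 348, 321 and 337 CPM at P56. The P56 libraries are above all others and the P1 and P14 libraries lie close together. Its first change was not called (-0.10 ± 0.06, adjusted p = 0.153), and it rose 1.85-fold from P14 to P56 (0.89 ± 0.06, adjusted p = 3.49e-06). Its partner Col4a6 had 32.5, 29.7 and 28.7 CPM at P1, 8.18, 6.00 and 4.08 CPM at P14, and 2.54, 2.16 and 2.76 CPM at P56, with no overlap between ages. Col4a6 fell 4.97-fold and then 2.45-fold, and was 12.2-fold lower at P56 than at P1 (-3.61 ± 0.22, adjusted p = 5.11e-07). Counts of Col4a5 per count of Col4a6 numbered 5.98 to 6.81 in the P1 libraries, 22.8 to 46.3 in the P14 libraries and 122 to 149 in the P56 libraries. In the bases printed above, Col4a5 has 1 CCAAT and Col4a6 has 1 GGGCGG on the opposite strand. The full Col4a5 window also holds 1 GGGCGG, past the end of its printed bases, so both windows have that sequence.

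The third pair, Col4a3 and Col4a4, was counted at lower levels. Col4a3 had 6.69, 7.16 and 7.12 CPM at P1, 22.4, 16.8 and 13.7 CPM at P14, and 17.6, 13.1 and 12.7 CPM at P56. It rose 2.52-fold from P1 to P14 (adjusted p = 0.000222), its later change was not called (-0.28 ± 0.18, adjusted p = 0.204), and it was higher at P56 than at P1 (1.05 ± 0.18, adjusted p = 0.000658). Col4a4 had 7.78, 7.52 and 8.29 CPM at P1, 32.0, 25.2 and 17.8 CPM at P14, and 13.5, 9.90 and 9.02 CPM at P56, a 3.18-fold rise (adjusted p = 0.000129) and a 2.31-fold fall (adjusted p = 0.000897). The count ratio of Col4a3 to Col4a4 was 0.859 to 0.952 in the P1 libraries, 0.667 to 0.766 at P14 and 1.30 to 1.41 at P56, with no overlap between ages. Col4a3 shares 563 exonic bases with C430014B12Rik on the opposite strand; no label or header says whether strand was used in counting, so reads of that stretch cannot be told apart and the level of Col4a3 is uncertain to that extent.

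Per kilobase of annotated exon, the 6 type IV genes made up a different mixture at each age. Col4a2 took 37.4% ± 1.24 of their summed per-kilobase level at P1 and Col4a5 31.4% ± 0.783. At P14 Col4a2 took 45.1% ± 2.72, Col4a1 31.8% ± 4.05 and Col4a5 19.6% ± 2.51. At P56 Col4a5 took 54.4% ± 1.57, Col4a2 28.0% ± 1.37 and Col4a1 14.7% ± 1.20. Col4a6 went from 4.11% ± 0.183 to 0.541% ± 0.133 and 0.339% ± 0.0439. Among all 36 collagens the highest mean per-kilobase level was that of Col4a2 at P1 (34.6 CPM per kilobase, before Col4a5 with 29.1) and at P14 (62.4, before Col4a1 with 44.5), and that of Col4a5 at P56 (49.96, before Col4a2 with 25.7). The first fibrillar gene in that order was Col1a1 at P1 with 8.38 and at P14 with 20.2, behind 3 type IV genes at both ages. At P56 it was Col3a1 with 1.28, before Col1a1 with 1.07. Exon length here is the union over all annotated transcripts, which understates the level of genes with many retained-intron models, such as Col1a2. The scaling makes genes comparable only if the counts came from exons, and the counting options were not found. Col4a5 spans 213850 bases and Col1a1 16819, and the part of gene length in these mixtures and this order was not tested.

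**Figure D3:**
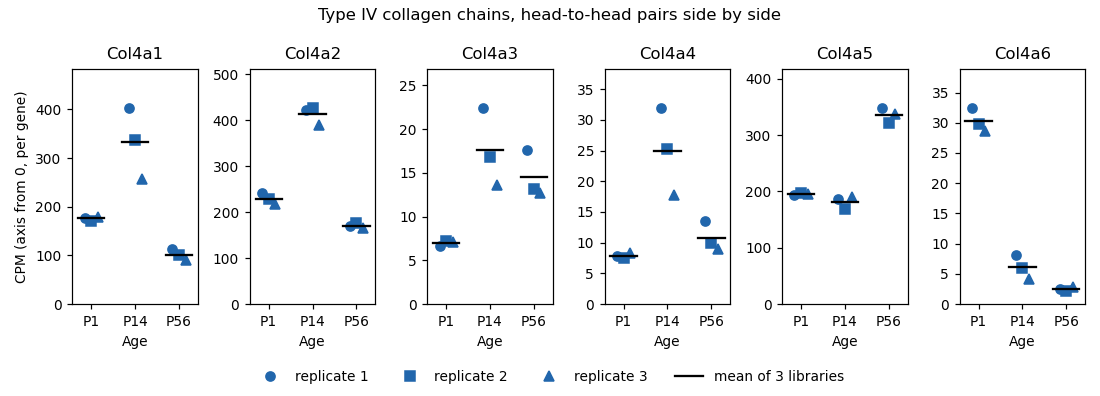
Level of the 6 type IV collagen genes in CPM by age, in a panel per gene with its own axis from 0, a point for each of the 9 libraries and a bar at the mean of each age. Col4a1 and Col4a2 are both highest at P14, whereas Col4a5 ends at a mean of 336 CPM at P56 and Col4a6 at 2.49 CPM.

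The remaining basement membrane members fell from P14 to P56. Col15a1, the core protein of type XV, which links the basement membrane to nearby fibrils, had 17.1, 11.3 and 16.8 CPM at P1, 112, 69.3 and 34.7 CPM at P14, and 13.5, 6.29 and 4.61 CPM at P56. It rose 4.78-fold (2.26 ± 0.46, adjusted p = 0.00217) and fell 8.85-fold (-3.15 ± 0.48, adjusted p = 0.000428), and its P1 and P56 values overlap. Col18a1, the precursor of endostatin, went from 9.54 ± 1.84 to 12.9 ± 4.57 and 1.47 ± 0.450 CPM. Its first change was not called, and it was 6.50-fold lower at P56 than at P1 (adjusted p = 4.26e-05). Col7a1, the anchoring fibril chain of skin, was low throughout, at 1.54 ± 0.175, 2.00 ± 0.816 and 0.340 ± 0.117 CPM, and fell by 2.55 on the log2 scale from P14 to P56.

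Set beside each other, the fibrillar and basement membrane sums changed to different extents. The fibrillar sum was 224 ± 72.4 CPM at P1, 537 ± 300.3 CPM at P14 and 47.7 ± 17.2 CPM at P56, with library values of 149 to 294, 223.4 to 822 and 30.8 to 65.2 CPM. Fibrillar counts per basement membrane count were 0.226 to 0.441 in the P1 libraries, 0.244 to 0.683 at P14 and 0.0495 to 0.0961 at P56. The P1 and P14 ratios overlap, and all P56 ratios lie below both. The other 17 collagens summed to 102 ± 16.3, 159 ± 71.9 and 54.3 ± 7.73 CPM. All collagens together took 0.109% ± 0.0123, 0.177% ± 0.0634 and 0.0690% ± 0.00765 of the counts of a library. No test was made of the sums, since the same members define them, and the exact test of 3 against 3 libraries could not pass the threshold.

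**Figure D4:**
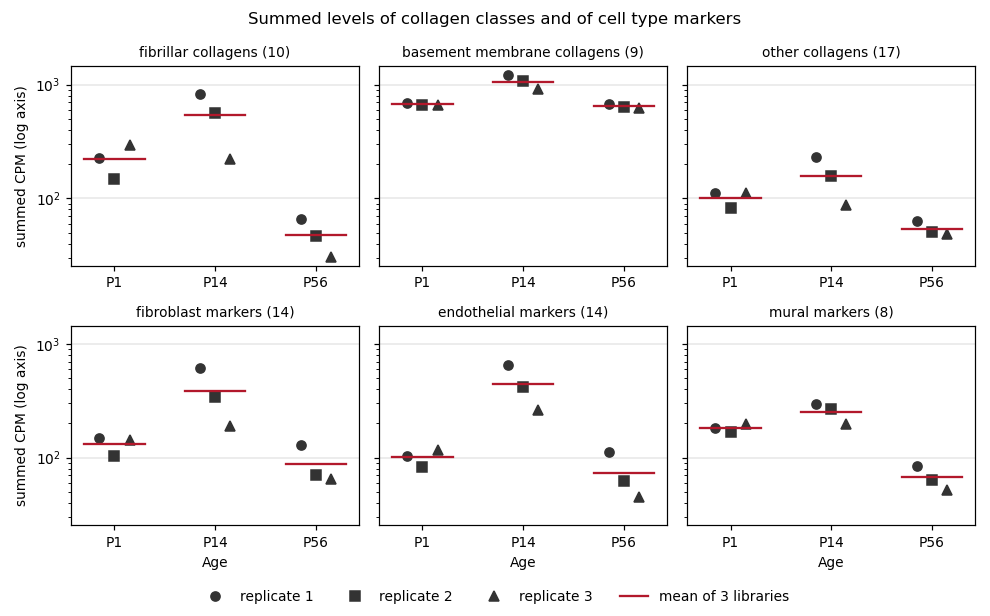
Summed CPM, on a log axis, of the fibrillar, basement membrane and other collagens (top) and of the fibroblast, endothelial and mural markers (bottom) in each of the 9 libraries, with a bar at the mean of each age. The P14 libraries spread widest for the fibrillar sum, from 223.4 to 822 CPM, and the basement membrane sum stays at or above 622.4 CPM in all libraries.

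The classes also differed in how far libraries of 1 age lay apart. At P14 the highest library stood above the lowest by a median of 3.54-fold for the fibrillar genes, 1.79-fold for the basement membrane genes and 2.86-fold for the other 17, beside 1.28-fold over all genes. P14 library 1 was highest and library 3 lowest for 27 of 36 collagens (9 of 10 fibrillar, 6 of 9 basement membrane), against 28.1% of all genes, and the markers of fibroblasts and endothelial cells had that same order. At P56 library 1 was highest and library 3 lowest for 18 of 36, against 21.2% of all genes. Col4a2, Col4a5, Col13a1 and Col20a1 were among the members least spread at P14, with SDs of 20.1, 10.6, 0.228 and 0.502 CPM around means of 413, 182, 8.01 and 7.93 CPM.

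Type VI collagen forms beaded filaments between cells and fibrils. All 4 of its genes fell from P14 to P56, where 28.5% of all genes fell. From P1 to P14, where 28.4% of all genes rose, Col6a1 and Col6a3 rose. With the score of other cell types' markers in the fit (described further on), both were instead called lower at P14 than at P1 (-1.19, adjusted p = 0.000529, and -0.69, adjusted p = 0.00852), and 0 of the 4 were called lower at P56 than at P14 (median -0.03). Col6a1 had 9.19, 5.93 and 11.8 CPM at P1, 29.4, 20.7 and 9.05 CPM at P14, and 4.10, 2.18 and 1.56 CPM at P56, and its rise (1.136 ± 0.44, adjusted p = 0.0482) did not pass without P56 library 2, without P14 library 1 or 2 or without any one P1 library (adjusted p 0.0538 to 0.153). Col6a2, its neighbour on chromosome 10 on the same strand, had 31.5, 25.6 and 32.2 CPM at P1, 36.1, 22.0 and 10.1 CPM at P14, and 5.12, 2.82 and 1.78 CPM at P56. Its P1 and P14 values overlap (-0.39 ± 0.42, adjusted p = 0.452), and it was 9.18-fold lower at P56 than at P1. Counts of Col6a1 per count of Col6a2 were 0.232 to 0.366 in the P1 libraries, 0.814 to 0.941 at P14 and 0.772 to 0.875 at P56, with the P1 ratios below all others; these are again ratios of counts between genes of different length.

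Col6a3 had 9.04, 5.53 and 10.7 CPM at P1, 41.9, 28.3 and 12.8 CPM at P14, and 6.09, 2.80 and 2.14 CPM at P56. It rose 3.28-fold (adjusted p = 0.0104) and fell 7.52-fold. Col6a6 stood at 7.69 ± 1.67, 15.7 ± 9.33 and 3.13 ± 1.23 CPM, with its first change just short of the threshold (1.03 ± 0.40, adjusted p = 0.0503). It was lower at P56 than at P1 (-1.30 ± 0.42, adjusted p = 0.0218), though not without P1 library 1 or 3 or P56 library 2 or 3 (adjusted p 0.0587 to 0.0772).

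Fibril-associated collagens sit on the surface of fibrils. From P1 to P14 2 of 7 rose and 1 fell, near the shares of all genes (28.4% and 27.5%). Over the second interval 1 rose and 4 fell (27.5% and 28.5% of all genes), and between P1 and P56 1 was higher and 4 lower (30.9% and 31.7% of all genes). Col14a1, with the highest mean CPM of the class over the 9 libraries though below Col20a1 at P56, had 15.0, 8.55 and 15.4 CPM at P1, 36.7, 21.8 and 9.32 CPM at P14, and 2.49, 1.56 and 1.09 CPM at P56. It fell 13.2-fold from P14 to P56 (-3.72 ± 0.51, adjusted p = 0.000244). Col12a1 fell over both intervals, from 5.19, 4.26 and 5.53 CPM to 2.04, 1.70 and 1.02 CPM and then 0.544, 0.689 and 0.512 CPM, with no overlap between ages (P56 against P1 -3.10 ± 0.26, adjusted p = 3.75e-06).

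Col22a1, which is known from the junction of muscle with tendon, went the other way. It had 0.285, 0.133 and 0.180 CPM at P1, 0.281, 0.460 and 0.359 CPM at P14, and 1.25, 1.31 and 2.47 CPM at P56. Each P56 library is above every earlier one, the rise from P14 was 4.56-fold (2.19 ± 0.37, adjusted p = 0.000771), and P56 was 8.20-fold above P1 (adjusted p = 6.32e-05). Col16a1 rose 2.37-fold and fell 10.7-fold, between 1.74 ± 0.208, 4.14 ± 2.16 and 0.384 ± 0.124 CPM. Col19a1 had 0.459, 0.360 and 0.324 CPM at P1, 0.588, 1.27 and 1.02 CPM at P14, and 0.521, 0.735 and 0.423 CPM at P56, and its 2.49-fold rise was called (adjusted p = 0.00733). Col9a3 had 0.870, 0.891 and 1.01 CPM at P1, 0.716, 0.730 and 0.276 CPM at P14, and 0.0453, 0.0918 and 0.111 CPM at P56, and was 10.8-fold lower at P56 than at P1 (adjusted p = 7.22e-05). Col20a1 had 6.91, 7.22 and 5.96 CPM at P1, 8.10, 8.33 and 7.37 CPM at P14, and 5.34, 6.84 and 8.20 CPM at P56, with no change called.

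Col8a1, a short-chain collagen of vessel walls and endothelial matrix, had 0.775, 0.644 and 0.703 CPM at P1, 14.2, 7.84 and 3.67 CPM at P14, and 10.5, 4.32 and 3.81 CPM at P56. It rose 12.1-fold by P14 (3.59 ± 0.56, adjusted p = 0.000457), and its later change was not called (-0.47 ± 0.48, adjusted p = 0.427). P56 was 8.74-fold above P1 (3.13 ± 0.55, adjusted p = 0.000729). Without P56 library 1 that last log2 change was 2.52.

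The transmembrane collagens, which stay anchored in the cell surface, are Col13a1, Col23a1 and Col25a1. Col23a1 had 6.15, 3.45 and 5.19 CPM at P1, 13.1, 12.2 and 11.6 CPM at P14, and 11.9, 14.3 and 13.9 CPM at P56. It rose 2.49-fold by P14 (1.32 ± 0.18, adjusted p = 0.000227) and its later change was not called (0.12, adjusted p = 0.585). Col13a1, found at neuromuscular and cell-matrix contacts, had 10.4, 10.3 and 8.88 CPM at P1, 7.90, 7.87 and 8.28 CPM at P14, and 7.54, 9.09 and 8.49 CPM at P56. Its small fall by P14 (-0.30 ± 0.10, adjusted p = 0.031) did not pass without P1 library 1 or 2 or P14 library 1 or 2 (adjusted p 0.0551 to 0.108). Col25a1 had 1.80, 1.04 and 1.42 CPM at P1, 4.42, 2.27 and 1.54 CPM at P14, and 1.27, 0.390 and 0.401 CPM at P56, and only its fall from P14 to P56 was called (-1.999 ± 0.51, adjusted p = 0.008; -2.79 without P56 library 1).

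Col28a1, a collagen with von Willebrand factor domains, was at 0.300, 0.265 and 0.270 CPM at P1, 1.46, 1.35 and 1.10 CPM at P14, and 1.09, 1.01 and 1.00 CPM at P56. It rose 4.64-fold by P14 (2.21 ± 0.20, adjusted p = 1.65e-05) and was still 3.67-fold above P1 at P56. Col26a1 had 1.91, 1.21 and 1.73 CPM at P1, 2.84, 1.54 and 0.938 CPM at P14, and 0.204, 0.0689 and 0.0891 CPM at P56, a fall of 14.4-fold from P14 (adjusted p = 0.000226). Without P56 library 1 its log2 change from P14 was -4.45, against -3.85, and from P1 -4.31, against -3.72.

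Most of the 54 markers of other cell types moved in the same direction as most collagens in each interval, but not those of every cell type. From P14 to P56, 1 of 9 leukocyte markers and 0 of 3 Schwann cell markers were called lower, beside 28.5% of all genes. Between P1 and P56 14 of the 54 markers were higher and 16 lower, beside 30.9% and 31.7% of all genes. The fit was repeated with their mean log2 CPM in each library as a covariate, the marker score. That score was 1.52, 1.148 and 1.66 in the P1 libraries, 3.49, 2.95 and 2.33 at P14, and 1.59, 0.970 and 0.581 at P56, so it is itself partly a measure of age. With it, 11 collagens were called higher and 16 lower at P14 than at P1 (23.7% and 24.2% of all genes). From P14 to P56 3 were called higher and 5 lower (16.2% and 15.2% of all genes). At P56 8 were called higher and 25 lower than at P1 (32.8% and 33.7% of all genes). Of the 77 changes called between 2 ages without the score, 46 were called in the same direction with it.

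With the score in the fit, 1 of 10 fibrillar genes, Col11a2, was called lower at P56 than at P14, near the share of all genes (15.2%). The median of the 10 was -0.49. Their difference between P1 and P56 was called lower in 8 of 10, beside 33.7% of all genes, with a median of -1.78. For Col1a1 the log2 changes were -1.56 from P1 to P14, -0.80 from P14 to P56 and -2.36 from P1 to P56. Col4a2 and Col4a5 kept nearly the same values, at 0.77 and -1.18 for the 2 intervals of Col4a2 and at 0.90 for the second interval of Col4a5. Col4a1 was at 0.26, which was not called (adjusted p = 0.0847), and at -0.90, against 0.92 and -1.72 without the score. Col4a4 was at 0.69 and -0.00086, the latter not called (adjusted p = 0.997), against 1.67 and -1.21. Col4a3 was at 0.56 and 0.67, both called, against 1.34 and -0.28. Col4a6 was at -2.98 for the first interval and at -0.45 for the second, which was not called (adjusted p = 0.3875). Col8a1 was at 1.10 and 2.53, and its difference between P1 and P56 at 3.62. Col15a1 was at -0.06 and -0.36, against 2.26 and -3.15 without the score.

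**Figure D5:**
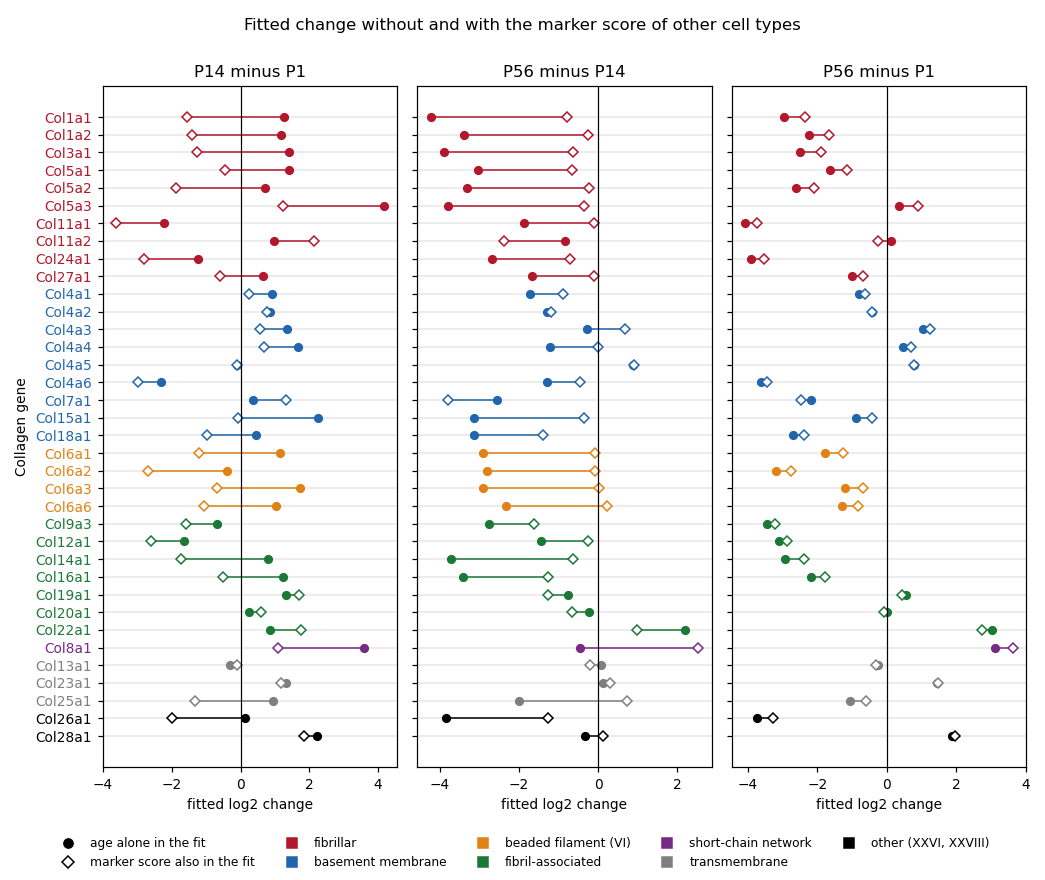
Fitted log2 change of each of the 36 collagen genes (rows, coloured by class) for the 3 pairs of ages, with a filled circle for the fit with age alone and an open diamond for the fit that also holds the marker score. Circle and diamond nearly coincide for Col4a2, Col4a5 and Col23a1, and lie far apart for Col1a1 in both intervals.

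Genes that make, cut, bind and break down collagen chains were taken from lists chosen for their roles. Over all genes, 28.4% rose and 27.5% fell from P1 to P14, and 27.5% rose and 28.5% fell from P14 to P56. At P56, 30.9% of all genes were higher and 31.7% lower than at P1. Of 19 genes of chain modification and folding, 6 rose and 4 fell from P1 to P14, 4 rose and 8 fell from P14 to P56, and 5 were higher and 7 lower at P56 than at P1, with median log2 changes of 0.08, -0.15 and -0.03. The largest change was in P4ha3, a subunit of prolyl 4-hydroxylase, the enzyme that lets the helix hold at body temperature. It went from 12.6 ± 1.18 CPM at P1 to 0.911 ± 0.208 CPM at P14 and 0.0453 ± 0.0393 CPM at P56 (log2 change between P1 and P56 -8.04 ± 0.31, adjusted p = 2.61e-08). The largest rise by P14 was that of Colgalt2, a collagen galactosyltransferase, from 2.48 ± 0.249 to 15.9 ± 8.44 CPM (2.68 ± 0.42, adjusted p = 0.000484), and it fell to 3.21 ± 1.66 CPM. P4ha2, another subunit of prolyl 4-hydroxylase, rose over both intervals, from 51.2 ± 1.32 to 102 ± 25.3 and 149 ± 15.4 CPM, and was higher at P56 than at P1 by 1.54 ± 0.16. Plod2, a lysyl hydroxylase, stood at 33.8 ± 1.68, 45.4 ± 3.94 and 82.1 ± 5.92 CPM and was 1.28 ± 0.08 higher at P56 than at P1 on the log2 scale. Fkbp10, a folding helper of type I chains, fell by 2.97 on that scale between P1 and P56.

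Of 14 genes of procollagen cleavage and cross-linking, 8 rose and 2 fell by P14, and 1 rose and 11 fell afterwards (medians 0.83 and -1.51). Over all genes, 28.4% rose and 27.5% fell by P14, and 27.5% rose and 28.5% fell afterwards. Adamts2, which removes the amino-terminal propeptide, rose from 16.9 ± 1.88 to 65.8 ± 3.03 CPM (1.97 ± 0.09), and Loxl4, a cross-linking enzyme, rose by 2.13 ± 0.57 from a mean of 0.121 CPM. Adamts14, of the same family as Adamts2, had the largest fall from P14 (-3.64 ± 0.54). Lox, the main cross-linking oxidase, went from 1.65 ± 0.167 and 2.10 ± 1.22 CPM to 0.258 ± 0.148 CPM, a fall of 3.02 on the log2 scale from P14. Of 8 collagen-binding proteoglycans, 5 rose and 0 fell by P14, and 1 rose and 4 fell afterwards (medians 1.24 and -1.29). Podn rose most by P14 (2.06 ± 0.15), and Ogn rose over both intervals, from 8.66 ± 1.46 to 16.4 ± 0.366 and 48.7 ± 5.45 CPM.

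Of 9 tested genes of collagen breakdown and its control, 2 rose and 2 fell by P14, and 1 rose and 8 fell afterwards (medians 0.03 and -1.53). The shares of all genes that rose and fell were 28.4% and 27.5% by P14, and 27.5% and 28.5% afterwards. Mmp14, a membrane-bound collagenase, went from 7.57 ± 0.982 and 5.34 ± 2.68 CPM to 0.325 ± 0.270 CPM (-4.53 ± 0.50 between P1 and P56). Timp4, an inhibitor of such enzymes, rose from 0.548 ± 0.156 to 5.18 ± 3.32 CPM and then stood at 1.28 ± 0.561 CPM. Of 8 collagen receptors, 3 rose and 3 fell by P14, and 0 rose and 5 fell afterwards (medians 0.36 and -0.64). Itga11, an integrin subunit that binds fibrillar collagen, rose most by P14 (2.90 ± 0.49) and fell afterwards (-2.40 ± 0.48). Itga1, an integrin subunit that binds type IV collagen, went from 168 ± 6.95 to 92.9 ± 27.6 and 65.5 ± 4.41 CPM.

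Of 10 genes of proteins that share the basement membrane with type IV collagen, 4 rose and 1 fell by P14, 2 rose and 8 fell afterwards, and 3 were higher and 5 lower at P56 than at P1 (medians 0.18, -0.65 and -0.63). In the same order, the shares of all genes were 28.4% and 27.5%, 27.5% and 28.5%, and 30.9% and 31.7%. Lama2, the laminin chain of muscle basement membranes, rose from 949.4 ± 3.99 to 1822 ± 46.9 CPM by P14 and stood at 2174 ± 154 CPM at P56 (1.20 ± 0.07 against P1). Lama5 rose from 52.1 ± 1.74 to 144 ± 9.92 CPM between P1 and P56. Nid1, which links laminin to type IV collagen, rose by 1.22 ± 0.43 by P14 and then fell (-2.24 ± 0.45). Lamb1 fell by 2.31 on the log2 scale between P1 and P56, from 225.1 ± 0.250 to 45.3 ± 4.78 CPM. Hspg2, which encodes perlecan, went from 351 ± 5.40 to 628.1 ± 39.4 and 211 ± 19.7 CPM. With the marker score in the fit, the falls of Colgalt2, Adamts14, Lox and Timp4 from P14 to P56 were not called (adjusted p = 0.911, 0.167, 0.537 and 0.113). The same held for the falls of Itga1, Itga11 and Nid1 over that interval (0.392, 0.636 and 0.0584) and for the rises of P4ha2 and Lama2 (0.270 and 0.0510). The rises of Plod2, Itga11 and Loxl4 by P14 were not called either (0.236, 0.138 and 0.346). Nid1 was instead called lower at P14 than at P1 (-1.05, adjusted p = 0.000194).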

How the data were processed

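RNA was sequenced from 9 libraries of cells labelled as isolated cardiomyocytes, 3 per age. Per the submitters' processing notes, the authors worked with featureCounts 1.4.2, STAR 2.4.0g1, bcl2fastq 2.17.1.14 and GRCm38, and deposited a table of whole-number counts per gene, each named by Ensembl identifier and symbol; the counting options, such as exons alone or strand, were not found in the labels or headers. The 9 columns were assigned to ages by name. No gene of the table had a mean count below 10.

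Counts were analysed in R 4.3.3 with edgeR 4.0.16: filterByExpr (7 genes removed, 15817 tested), TMM scaling, and quasi-likelihood F tests in 1 fit of all 9 libraries that held age alone. P-values were adjusted by the Benjamini-Hochberg method over all tested genes for each contrast, with a threshold of 0.05. A standard error is the absolute log2 change divided by the square root of its F value. The biological coefficient of variation was 13.9%. Replicates of an age differed by more than counting noise (chi-square per degree of freedom 5.56 to 104). Nothing says whether replicates were separate groups of animals throughout, so p-values measure the spread between these libraries. Alternatives were other scalings, no filter, a replicate block, the marker score, a test against a log2 change of 1, DESeq2 1.42.0, fits of 2 ages and leaving out each library. The marker score is the mean log2 CPM of 54 markers of other cell types. Scripts were tested on simulated data.

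The members and all lists were chosen with earlier results of these data known. Values in every library were given for the 3 most abundant members of each class, for the member with the largest called change in each class, direction and pair of ages, and for the paired genes; others appear as means or counts. The genes named from a pathway list are among its 2 with the largest called change in at least 1 direction and pair of ages; not all such genes are named. Annotation was GENCODE M21, and promoter windows were RefSeq's.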

Additional observations from a re-analysis of the deposited data

How the results depend on the processing

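Of the 77 called changes of collagen genes between 2 ages, 70 were called without each library in turn, 77 with DESeq2's size factors, 75 with the library total alone, 77 without the filter, 76 with DESeq2's test, 74 in fits of the 2 ages and 48 against a log2 change of 1. The library total alone shifts the median of all genes to -0.13, -0.13 and -0.27 in the 3 comparisons. Replicate numbers did not pair the samples (same-number correlations -0.219 to 0.493). With a replicate block 76 of the 77 were called, Col3a1 from P1 to P14 being lost (adjusted p = 0.0514), and from P1 to P14 17 collagens were called higher and 5 lower. Depth limits the rarest members, such as Col9a3 with 2 counts in a library.

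Against a log2 change of 1, from P1 to P14 5 collagens were called higher and 3 lower (fibrillar 1 and 1, basement membrane 2 higher, others 2 and 1). From P14 to P56 1 was higher (basement membrane 0), between P1 and P56 0 basement membrane genes were higher and 3 lower, and no interval difference was higher (0). Fewer changes can pass by the construction of this test. With the marker score, 16 were lower at P14 than at P1 (fibrillar 6 lower and 2 higher, basement membrane 2 lower, others 8 lower). From P14 to P56 5 were lower (fibrillar 1, basement membrane 4 with 2 higher, others 0), 1 fibrillar gene was higher at P56 than at P1, and the interval difference was higher in 5 and lower in 4. The library total alone gave 1 higher interval difference and 2 basement membrane genes lower at P14 than at P1. The cause of these shifts was not tested.

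Leaving out 1 library at a time, the collagens called higher and lower numbered 13 to 23 and 4 to 5 from P1 to P14, 2 and 26 to 28 from P14 to P56, and 6 to 7 and 19 to 24 between P1 and P56, with 1 to 2 and 24 to 28 for the interval difference. For fibrillar genes they were 2 to 7 and 2, then 0 and 9 to 10, then 0 and 7 to 8. For basement membrane genes they were 5 to 6 and 1, then 1 and 7 to 8, then 2 to 3 and 5 to 6. For the other 17 they were 6 to 10 and 1 to 2, then 1 and 10 to 11, then 4 and 7 to 10. The ratio of fibrillar to basement membrane counts ranged over 0.278 to 0.386 (P1), 0.387 to 0.607 (P14) and 0.0621 to 0.0854 (P56).

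Some log2 changes turned sign. With the marker score, those from P1 to P14 became -1.56 for Col1a1, -1.40 for Col1a2, -1.26 for Col3a1, -0.47 for Col5a1, -1.87 for Col5a2, -0.58 for Col27a1, -0.062 for Col15a1, -0.97 for Col18a1, -1.19 for Col6a1, -0.69 for Col6a3, -1.06 for Col6a6, -1.72 for Col14a1, -0.51 for Col16a1, -1.33 for Col25a1 and -2.003 for Col26a1. From P14 to P56 they became 0.67 for Col4a3, 0.012 for Col6a3, 0.23 for Col6a6, 2.53 for Col8a1, -0.21 for Col13a1, 0.73 for Col25a1 and 0.13 for Col28a1, and between P1 and P56 -0.24 for Col11a2 and -0.077 for Col20a1. With the library total alone, Col11a2 was at -0.13 and Col20a1 at -0.22 between P1 and P56, and Col13a1 at -0.048 from P14 to P56. Over the fits without 1 library, the log2 change between P1 and P56 ran from -0.13 to 0.40 for Col11a2 (lowest without P56 library 2), from -0.14 to 0.17 for Col20a1 (below 0 without P1 library 3 or P56 library 3) and from -0.57 to 0.80 for Col5a3 (lowest without P56 library 1). That from P1 to P14 ran from -0.39 to 0.43 for Col26a1 (below 0 without P14 library 1 or P1 library 2), and that from P14 to P56 from -1.08 to 0.11 for Col8a1 (highest without P14 library 1). The cause of these turns was not tested.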
